A study of Mus musculus with 20 samples.

Results

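Bin1, Picalm, Cd2ap, Abi3, Ptk2b, Rin3, Abca7, Cass4 and Clu are mouse counterparts of genes that lie in regions associated with the risk of late-onset Alzheimer disease, and they act in endocytosis, the actin cytoskeleton, lipid transport and protein chaperoning. They were chosen by name as 9 of the 21315 gene symbols measured in sorted mouse microglia, by a rule that uses no measured value but was set with earlier results of these data known, and all 9 were measured in every library and passed the filter on low values in every comparison.

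In clathrin-mediated endocytosis, adaptor proteins collect cargo at the plasma membrane, bend the membrane and recruit clathrin, and the resulting vesicles fuse into early endosomes under the control of the small GTPase Rab5. Branched actin, nucleated by the Arp2/3 complex downstream of the WAVE complex, drives the membrane movements of uptake and of cell migration, while the focal adhesion kinases and the Cas scaffolds carry integrin signals to it. Microglia, the resident macrophages of the brain, depend on these systems to survey tissue and to take up Aβ, debris and lipoproteins.

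The study sequenced RNA from microglia, gated as CD45mid and CD11b+, of C57BL/6 mice at 9 months of age, with 20 libraries in 6 conditions. APP-KI mice carry the APP NL-G-F knock-in and form Aβ plaques, and C3aR-KO mice lack C3aR, the receptor for the complement fragment C3a that is encoded by C3ar1. In all sorted microglia, which were not selected on C3aR, the littermate genotypes were WT (n = 3), C3aR-KO (n = 3), APP-KI (n = 3) and APP-KI; C3aR-KO (n = 5). C3aR-positive microglia were sorted by Td-tomato from WT (n = 3) and APP-KI (n = 3) littermates of a cross with a Td-tomato reporter C3ar1 fl/fl line, so that these mice differ from the others in the reporter allele as well as in the sort. Males and females were used, and the sex of each mouse is not given in the labels.

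The values, deposited as FPKM, are read counts divided by the 75th percentile of the counts of each library, with no division by gene length, and they were multiplied here by 1 constant for all libraries so that a typical library sums to 1000000 (a scaled value). The libraries held 13939559 to 30388941 reads in C3aR-positive and 42239056 to 76608464 reads in all sorted microglia, and 1 read was worth 0.0132 to 0.0786 scaled units. All 12 microglial markers were found in every group. C3ar1 ran from 39.9 to 80.4 in the 8 libraries of C3aR-KO and APP-KI; C3aR-KO microglia and from 165 to 388 in the 6 WT and APP-KI libraries of all sorted microglia. In the 3 WT libraries labelled C3aR-positive, however, C3ar1 was 37.6 to 81.2, below all 3 WT libraries that were not selected on C3aR (276 to 340), so this label was not borne out by the transcript. The 3 APP-KI libraries labelled C3aR-positive held 201.0 to 383, so both groups of that comparison also differed in C3ar1. In 4 libraries of all sorted microglia (APP-KI replicate 4, C3aR-KO replicates 1 and 2, and APP-KI; C3aR-KO replicate 1) only 12387 to 13250 genes had a read, against 14888 to 21219 in the other 16, and the counts of members called with APP-KI in all sorted microglia are also given without them. The 14 libraries of all sorted microglia fall into 2 series by their library numbers, and the series was a term in their fit. All 6 C3aR-positive libraries belong to 1 further series, so the sort, the reporter line and the library series cannot be told apart. In bulk RNA, fewer cells of a type and less RNA per cell cannot be told apart either.

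In APP-KI microglia, Cass4, Bin1 and Abi3 were called lower in each comparison with mice without APP-KI, and no member was called higher in any comparison. In C3aR-positive microglia Cass4 and Bin1 were each called in 15 of 16 alternative settings and Abi3 in 7. In all sorted APP-KI against WT microglia Cass4 was called in 25 of 27, Bin1 in 6 and Abi3 in 12. For APP-KI; C3aR-KO against C3aR-KO the counts were 25, 20 and 14 of 27. In C3aR-positive microglia 4 of the 9 genes were lower in APP-KI than in WT (Cass4, Bin1, Abi3 and Picalm), by limma with Benjamini-Hochberg adjustment over all 12312 genes tested. Over all genes, 9.71% were called lower in that comparison and 1602 genes higher. Without selection on C3aR, 3 of 9 were lower (Cass4, Abi3 and Bin1), where 1.93% of 12407 genes were called lower and 275 genes higher. In APP-KI; C3aR-KO against C3aR-KO microglia the 3 genes were again lower, where 2.97% of genes were called lower and 491 genes higher. Of the members called, Cass4 fell most in all 3 comparisons, to between 0.347 and 0.391 times the level without APP-KI. Both groups of the last comparison lack C3aR, and their libraries are other ones than those of the first comparisons. They shared 1 fit and 1 estimate of the spread with all sorted WT and APP-KI microglia, so the calls are not independent. Without the 4 libraries with few genes, 6 of the 9 genes were called lower in all sorted APP-KI against WT microglia (background 14.7%) and 5 in APP-KI; C3aR-KO against C3aR-KO (background 18.2%), with Picalm and Rin3 joining in both and Cd2ap in the first. C3aR-KO then had 1 library left, which the fit takes to vary like the other groups.

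**Figure D1:**
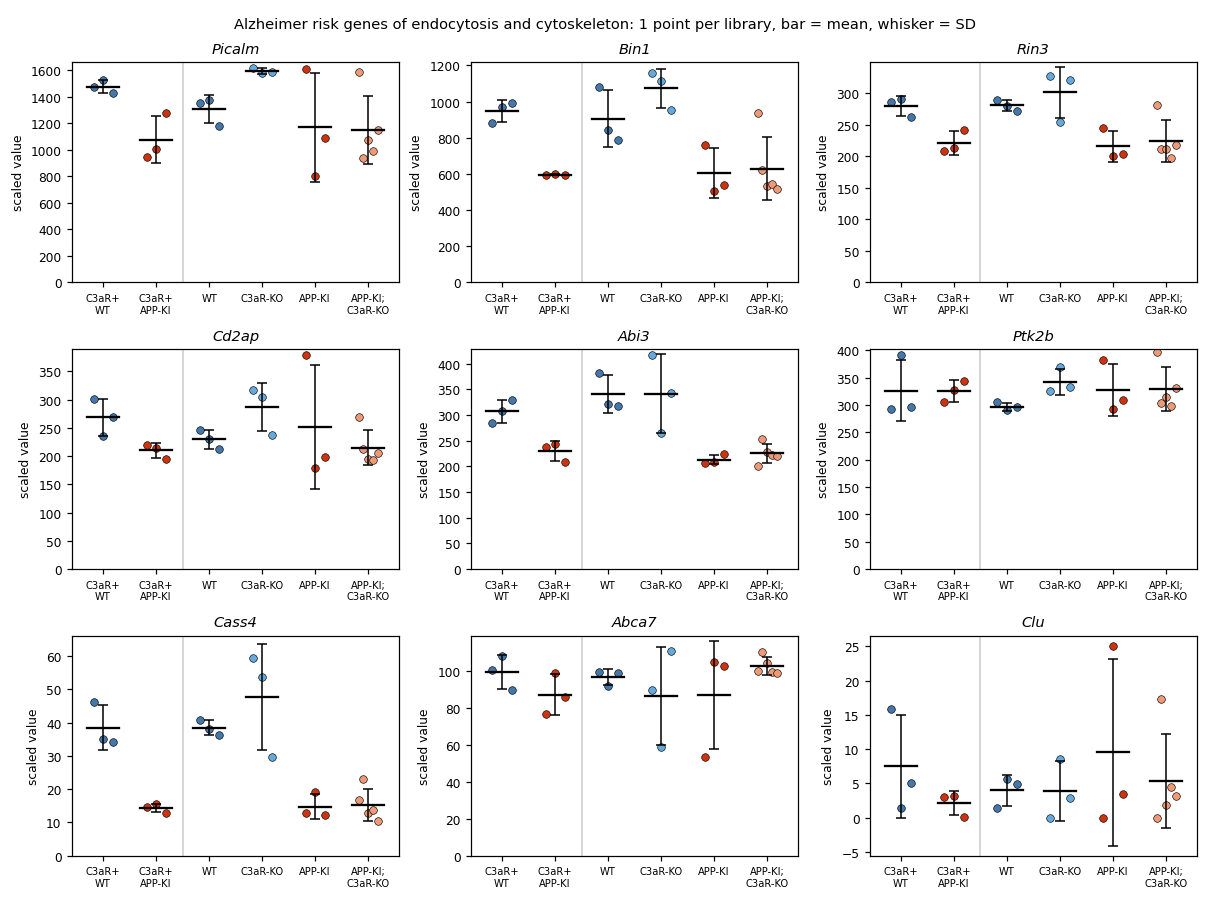
Scaled values of the 9 genes (linear axes from 0, except Clu, whose SD bars reach below 0), with 1 point per library, a horizontal bar at the group mean and whiskers of 1 SD, for 6 conditions of 3 to 5 libraries. Blue points are mice without and red points mice with APP-KI, and Cass4 lies between 10.4 and 23.0 in all 11 APP-KI libraries and between 29.6 and 59.5 in the 9 others.

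The first group of genes acts at the forming vesicle and the early endosome. Picalm encodes a clathrin adaptor that binds membrane phosphoinositides and sorts SNARE proteins. Its scaled values were 1470, 1522 and 1425 in WT and 946, 1005 and 1277 in APP-KI C3aR-positive microglia. Every APP-KI library lay below every WT library, and Picalm was lower by 0.46 on the log2 scale (SE 0.15, adjusted p = 0.0473, limma with Benjamini-Hochberg), or 0.725 times the WT level. That call was lost when any of the WT libraries or APP-KI replicate 1 or 2 was left out (adjusted p up to 0.137). Picalm in all sorted microglia was 1351, 1374 and 1181 in WT and 1608, 805 and 1087 in APP-KI. APP-KI replicate 4, the highest of the 6, is among the libraries with few genes, the groups overlapped, and the log2 difference was -0.25 with a 95% interval of -0.78 to 0.28 (adjusted p = 0.874, limma with Benjamini-Hochberg).

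The C3aR-KO values of Picalm, 1617, 1577 and 1582, were the most alike of any group. The 5 APP-KI; C3aR-KO libraries held 1581, 938, 1074, 986 and 1144, and replicate 1, with few genes, was again the highest. The log2 difference between these groups was -0.47 (SE 0.22, adjusted p = 0.247, limma with Benjamini-Hochberg). Without the libraries with few genes it was -0.58, with an adjusted p of 0.0248 by limma, and the corresponding values for APP-KI against WT were -0.45 and 0.0319.

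Bin1 encodes amphiphysin 2, a BAR-domain protein that senses and shapes curved membrane and takes part in endosomal recycling. Its scaled values were 879, 971 and 990 in WT and 591, 599 and 595 in APP-KI C3aR-positive microglia. The SD of the APP-KI libraries was 0.640% of their mean, and they lay far below the lowest WT library, a fall of 0.67 on the log2 scale (SE 0.11, adjusted p = 0.00271, limma with Benjamini-Hochberg). It was called without each of the 6 libraries in turn (adjusted p at most 0.0183). Without the C3aR sort Bin1 was 1083, 844 and 788 in WT and 762, 506 and 540 in APP-KI. The groups did not overlap although APP-KI replicate 4 came close to the lowest WT library, and the log2 difference was -0.72 (SE 0.19, adjusted p = 0.0476, limma with Benjamini-Hochberg). This call stood near the threshold: it was lost without any of the 3 WT or 3 C3aR-KO libraries, APP-KI replicate 5 or 6, or APP-KI; C3aR-KO replicate 3, 4 or 5, with adjusted p-values up to 0.236, it missed the threshold with median ratio scaling (0.0609) and by edgeR (0.0698), and it was 0.000696 without the 4 libraries with few genes. Within the 2 library series, with 1 or 2 libraries a group, the log2 difference was -0.80 and -0.60.

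In C3aR-KO microglia Bin1 was 1157, 1113 and 951, and in APP-KI; C3aR-KO microglia 935, 620, 535, 542 and 515. The highest of the 5 was just below the lowest of the 3, and Bin1 fell by 0.70 on the log2 scale (SE 0.17, adjusted p = 0.0205, limma with Benjamini-Hochberg). The call was lost without C3aR-KO replicate 1 (adjusted p = 0.0526) or 3 (0.0961) or APP-KI; C3aR-KO replicate 2 (0.0627). The within-series differences were -0.57 and -0.84.

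Rin3, a guanine nucleotide exchange factor of the Rab5 family of small GTPases, had scaled values of 287, 290 and 262 in WT and 208, 212 and 242 in APP-KI C3aR-positive microglia. All APP-KI libraries were below all WT libraries, at a log2 difference of -0.34 (SE 0.11) that missed the threshold (adjusted p = 0.0523, limma with Benjamini-Hochberg). Among all sorted microglia Rin3 was 290, 280 and 272 in WT and 244, 200 and 204 in APP-KI. The groups were again apart, by -0.41 (SE 0.16, adjusted p = 0.235, limma with Benjamini-Hochberg). In C3aR-KO microglia Rin3 was 328, 254 and 321, and in APP-KI; C3aR-KO microglia 282, 211, 212, 197 and 218. These overlapped through C3aR-KO replicate 2 and APP-KI; C3aR-KO replicate 1, both with few genes, at a log2 difference of -0.40 (adjusted p = 0.109, limma with Benjamini-Hochberg). Without either library the difference passed (adjusted p = 0.0396 and 0.0177), and without all 4 libraries with few genes Rin3 passed in both comparisons, at -0.62 (adjusted p = 0.000735) against C3aR-KO and -0.48 (adjusted p = 0.000917) against WT, by limma.

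The second group links receptors and adhesions to actin. Cass4 is a member of the Cas family of docking proteins, which assemble kinases and adaptors at focal adhesions. Per kilobase of exon it had the lowest level of the 4 cytoskeletal genes in every group. Its scaled values were 46.3, 35.2 and 34.0 in WT and 14.6, 15.5 and 12.9 in APP-KI C3aR-positive microglia, from 164 to 1439 reads. The highest APP-KI library stood below the lowest WT library by more than the spread within either group, and Cass4 fell by 1.36 on the log2 scale (SE 0.22, adjusted p = 0.00242, limma with Benjamini-Hochberg). Only 2.79% of the genes tested had a lower log2 fold change. Cass4 in all sorted microglia was 40.8, 38.1 and 36.4 in WT and 12.9, 19.1 and 12.2 in APP-KI. The fall of 1.53 (SE 0.27, adjusted p = 0.00347, limma with Benjamini-Hochberg) lay below the log2 fold change of all but 0.467% of genes.

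In C3aR-KO microglia Cass4 was 59.5, 53.7 and 29.6, and in APP-KI; C3aR-KO microglia 16.8, 23.0, 12.96, 13.7 and 10.4. The 2 highest C3aR-KO libraries are those with few genes, yet the third was still above all 5 libraries with APP-KI. The log2 difference was -1.42 (SE 0.24, adjusted p = 0.00174, limma with Benjamini-Hochberg), and 1.07% of genes had a lower one. Cass4 passed in all 3 comparisons without each library in turn (adjusted p at most 0.0269) and by edgeR and DESeq2 on the recovered reads (adjusted p at most 0.0039). Within the library series its differences were -1.32 and -1.53 in APP-KI against WT and -1.48 and -1.21 in APP-KI; C3aR-KO against C3aR-KO.

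Of the 9 genes, 5 have a promoter in the RefSeq table used (Cass4, Picalm, Abca7, Rin3 and Cd2ap), and the others (Bin1, Abi3, Ptk2b and Clu) are named only. The sequences of Cass4 and Picalm are shown because Cass4 fell most of the members called and Picalm was the other member with an entry that was called. Each runs from 250 bases before to 50 bases after the annotated transcript start, on the plus strand of GRCm38.p6, at chr2:172393394-172393693 for Cass4 and chr7:90129963-90130262 for Picalm. Capitals mark matches on either strand to GAGGAAG (a PU.1 motif), ACGTG (the hypoxia response core), CACGTG (the E-box bound by MiT and Myc family factors, which contains ACGTG) or TGANTCA (the AP-1 motif).
Cass4: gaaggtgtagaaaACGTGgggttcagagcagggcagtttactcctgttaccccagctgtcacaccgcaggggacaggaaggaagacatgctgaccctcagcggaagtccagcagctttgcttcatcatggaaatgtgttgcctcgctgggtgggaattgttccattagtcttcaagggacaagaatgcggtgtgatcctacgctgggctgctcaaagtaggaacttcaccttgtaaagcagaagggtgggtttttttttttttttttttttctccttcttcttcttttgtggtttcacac
Picalm: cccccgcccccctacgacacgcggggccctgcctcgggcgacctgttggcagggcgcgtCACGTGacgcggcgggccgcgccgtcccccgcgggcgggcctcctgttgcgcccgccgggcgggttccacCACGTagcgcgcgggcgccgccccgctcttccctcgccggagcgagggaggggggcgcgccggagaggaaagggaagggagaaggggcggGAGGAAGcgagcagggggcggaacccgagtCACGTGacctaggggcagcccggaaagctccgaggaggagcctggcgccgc
The Cass4 promoter held 1 match, ACGTG at 237 bases before the start, and the Picalm promoter held GAGGAAG once, ACGTG 5 times and CACGTG 2 times, with each palindromic CACGTG counting for ACGTG on both strands. Of all 32851 promoters in the table, 13.6% held GAGGAAG, 19.6% ACGTG, 7.15% CACGTG and 7.81% TGANTCA. The promoters of Abca7, Rin3 (2 starts) and Cd2ap held no match to these motifs, but GCGTG was not searched in them. The base composition of the members differed: 48.0% G and C in Cass4 and 60.7% in Abca7, against 78.0% in Picalm, 77.0% in Cd2ap and 69.0% and 61.3% at the starts of Rin3, with a median of 52.7% over all promoters.

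Abi3, a component of a WAVE regulatory complex that is prominent in myeloid cells, was 285, 308 and 330 in WT and 238, 244 and 209 in APP-KI C3aR-positive microglia. The groups did not overlap, at a log2 difference of -0.42 (SE 0.11, adjusted p = 0.0268, limma with Benjamini-Hochberg). The call was lost without WT replicate 2 (adjusted p = 0.0811) or 3 (0.107) or APP-KI replicate 3 (0.0518). Abi3 in all sorted microglia was 383, 322 and 318 in WT and 206, 209 and 223 in APP-KI. The APP-KI libraries were close together and well below WT, and Abi3 fell by 0.68 on the log2 scale (SE 0.17, adjusted p = 0.0327, limma with Benjamini-Hochberg). That call was lost without any WT or APP-KI library or without APP-KI; C3aR-KO replicate 3, 4 or 5 (adjusted p up to 0.288), and it was 0.000458 without the libraries with few genes.

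In C3aR-KO microglia Abi3 was 417, 264 and 344, and in APP-KI; C3aR-KO microglia 201.3, 254, 229, 223 and 219. The groups were apart by a narrow gap between C3aR-KO replicate 2 and APP-KI; C3aR-KO replicate 2, at a log2 difference of -0.57 (SE 0.15, adjusted p = 0.0317, limma with Benjamini-Hochberg). The call was lost without C3aR-KO replicate 1 (adjusted p = 0.114) or 3 (0.116), APP-KI; C3aR-KO replicate 3, 4 or 5, APP-KI replicate 6 or WT replicate 5. Unlike Picalm, Bin1, Rin3, Cd2ap and Ptk2b, which were highest of their group in APP-KI replicate 4 and APP-KI; C3aR-KO replicate 1, Abi3 was lowest there.

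Cd2ap encodes an SH3 adaptor that joins membrane receptors, endosomes and actin capping protein. It was 301, 235 and 269 in WT and 220, 215 and 195 in APP-KI C3aR-positive microglia. The groups were apart, at a log2 difference of -0.35 (SE 0.12) that missed the threshold (adjusted p = 0.0676, limma with Benjamini-Hochberg). Among all sorted microglia Cd2ap was 247, 230 and 213 in WT and 378, 179 and 198 in APP-KI. APP-KI replicate 4 was the highest of all 20 libraries and the others of its group were below every WT library, so that the log2 difference of -0.05 had a 95% interval of -0.50 to 0.40 (adjusted p = 0.989, limma with Benjamini-Hochberg). Without the libraries with few genes it was -0.29 (adjusted p = 0.0259, limma). In C3aR-KO microglia Cd2ap was 317, 304 and 238, and in APP-KI; C3aR-KO microglia 268, 213, 196, 194 and 205. Replicate 1 of the latter was again the highest and the only one to reach the C3aR-KO range, at a log2 difference of -0.33 (adjusted p = 0.345, limma with Benjamini-Hochberg).

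Ptk2b encodes Pyk2, the focal adhesion kinase that responds to calcium. It was 292, 391 and 296 in WT and 305, 327 and 344 in APP-KI C3aR-positive microglia. The groups overlapped and the log2 difference was 0.01, with a 95% interval of -0.29 to 0.31. Its values in all sorted microglia were 305, 290 and 296 in WT, 382, 293 and 308 in APP-KI, 326, 369 and 332 in C3aR-KO and 396, 304, 314, 298 and 332 in APP-KI; C3aR-KO. The highest values of the APP-KI groups were those of the libraries with few genes. The log2 difference was 0.10 (95% interval -0.21 to 0.41) for APP-KI against WT and -0.04 (-0.31 to 0.24) for APP-KI; C3aR-KO against C3aR-KO. A change in Ptk2b as large as that of Bin1 or Cass4 lies outside these intervals.

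Abca7 and Clu, which act in lipid handling, passed in no comparison. Abca7, a phospholipid and cholesterol transporter that also promotes phagocytosis, was 100.5, 107.9 and 89.8 in WT and 76.5, 98.7 and 85.6 in APP-KI C3aR-positive microglia. The groups overlapped (log2 difference -0.19, 95% interval -0.51 to 0.12). Its values in all sorted microglia were 99.0, 91.4 and 98.6 in WT, 53.4, 105 and 102 in APP-KI, 89.5, 58.5 and 111 in C3aR-KO and 99.6, 110, 104, 99.3 and 98.5 in APP-KI; C3aR-KO. The 2 low values, in APP-KI replicate 4 and C3aR-KO replicate 2, belong to libraries with few genes, and outside those 2 every library of all sorted microglia lay between 89.5 and 111.

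Clu encodes clusterin, a secreted chaperone and apolipoprotein that astrocytes are known to produce in quantity. Its values were low and spread widely: 15.8, 1.46 and 5.05 scaled units in WT and 3.00, 3.17 and 0.0786 in APP-KI C3aR-positive microglia, the last being 1 read. In all sorted microglia Clu was 1.41, 5.62 and 4.96 in WT, 0, 25.1 and 3.40 in APP-KI, 0, 8.62 and 2.84 in C3aR-KO and 0, 17.3, 1.89, 4.49 and 3.19 in APP-KI; C3aR-KO. The SD of each group ran from 56.7% to 143% of its mean. The libraries without a Clu read, APP-KI replicate 4, C3aR-KO replicate 1 and APP-KI; C3aR-KO replicate 1, are 3 of the 4 with few genes, and they held 42239056 to 69483570 reads in all, more than any C3aR-positive library. The highest values came from APP-KI replicate 5 and APP-KI; C3aR-KO replicate 2, which also held the most RNA of the astrocyte transporter gene Slc1a2 (93.4 and 70.4, against at most 48.1 in the other 18), while the sum of the 10 astrocyte markers in them, 371 and 364, was within the range of the other libraries (214 to 426). Slc1a3 made up 164 of the 371 in APP-KI replicate 5 and 218 of the 364 in APP-KI; C3aR-KO replicate 2. In C3aR-KO replicate 1 it was 378 of 390. The sum therefore mostly follows Slc1a3 and says little about the other markers of the list. Other astrocyte genes went different ways: Aldoc was also highest in APP-KI replicate 5 (23.1), but Slc1a3 was lowest there (164). Gfap was highest in APP-KI; C3aR-KO replicate 4 (17.9) and Aqp4 in C3aR-KO replicate 2 (15.9). The part of other cells in the Clu values was not tested. The log2 difference between APP-KI and WT was -1.27 (95% interval -3.01 to 0.48) in C3aR-positive and 0.19 (-2.38 to 2.75) in all sorted microglia, so changes of several fold in either direction were not detectable in the latter. The difference in C3aR-positive microglia was -2.05 with a pseudocount of 0.1 and -1.72 by edgeR, and it was -0.56 without WT replicate 1, -0.63 without APP-KI replicate 3 and -1.95 without WT replicate 2.

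**Figure D2:**
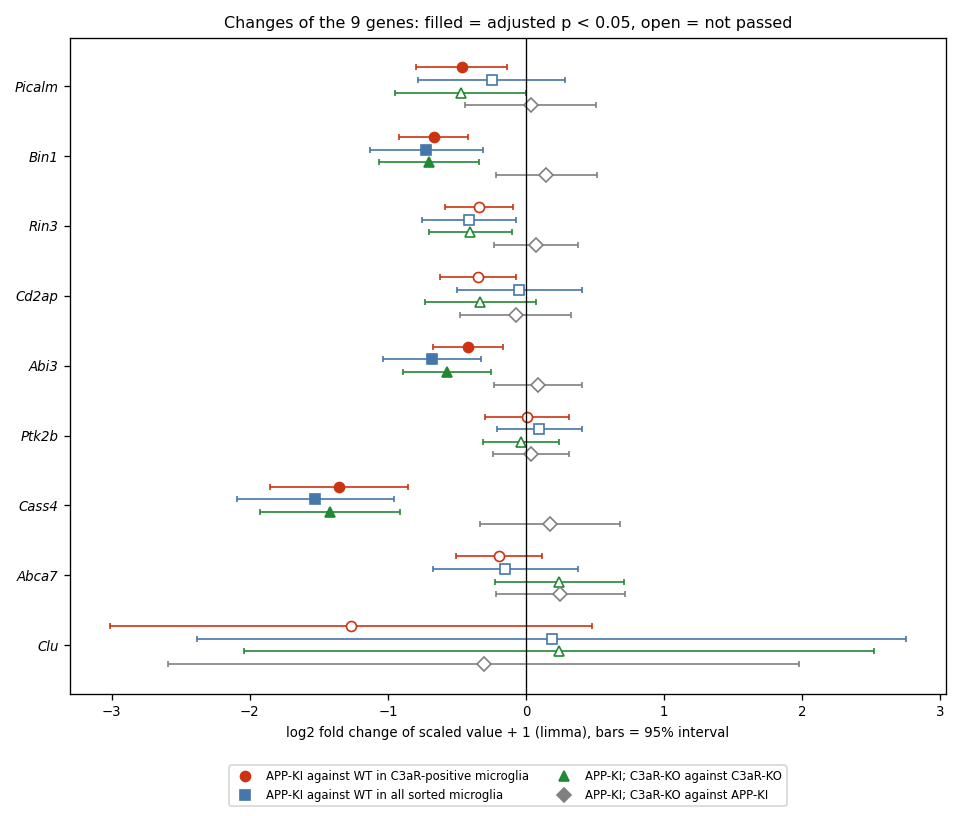
Log2 fold change (horizontal axis) of each of the 9 genes in 4 comparisons, with 95% intervals from limma, where filled symbols passed an adjusted p of 0.05. Cass4, Bin1 and Abi3 were filled and below 0 in the 3 comparisons of APP-KI with mice without it, and no gene was filled in APP-KI; C3aR-KO against APP-KI.

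Across the 9 genes, the median log2 fold change in C3aR-positive microglia was -0.42, with 8 of 9 below 0, and every APP-KI library was below every WT library for 6 of the 9 (25.7% of all genes). The median over all genes was -0.17 under the deposited scaling and -0.03 under median ratio scaling. Relative to the median of all genes, the changes were -1.19 for Cass4, -0.50 for Bin1, -0.30 for Picalm and -0.25 for Abi3. With median ratio scaling Cass4 and Bin1 remained called (adjusted p = 0.00372 and 0.0142), against 4.91% of genes called lower, and Abi3 (0.129) and Picalm (0.219) did not, by limma. That scaling called 1847 genes higher and 605 lower, against 1602 and 1196 under the deposited one. edgeR and DESeq2 on the recovered reads also called Cass4 and Bin1 alone. In all sorted microglia, where the median of all genes was -0.01, the members' median was -0.25 with 7 of 9 below 0, and 4 of 9 had non-overlapping groups with APP-KI lower (16.4% of all genes). For APP-KI; C3aR-KO against C3aR-KO the members' median was -0.40 against -0.03, with 7 of 9 below 0 and 3 of 9 without overlap (7.34% of all genes). Cell markers moved with APP-KI too. The summed border macrophage markers (10 of 10 found) were 1574 to 3058 in the 9 libraries without and 599 to 1008 in the 11 with APP-KI, and the 10 endothelial markers were 99.9 to 178 without and 207 to 530 with APP-KI. The summed microglial markers (12 of 12 found) were lower with APP-KI, without overlap, in C3aR-positive (26980 to 28848 in WT, 19731 to 23637 in APP-KI) and in all sorted microglia (31550 to 33377 in WT, 13323 to 26222 in APP-KI), and overlapped between C3aR-KO (19695 to 31904) and APP-KI; C3aR-KO (11858 to 28480). Their part in the changes of the 9 genes was not tested.

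No change in the 9 genes was detected with the deletion of C3aR. In C3aR-KO against WT microglia, 0 of 9 passed by limma with Benjamini-Hochberg adjustment, where 0.00806% of genes (C3ar1 alone) did. No member had an unadjusted p under 0.05, and edgeR and DESeq2 also called 0 of 9. An unadjusted p under 0.05 was found by limma for 123 higher and 221 lower of 12407 genes, fewer than chance alone gives. The log2 differences ran from -0.36 for Clu to 0.26 for Picalm, and Picalm and Ptk2b were higher in each C3aR-KO library than in each WT library, as were 9.16% of all genes. In APP-KI; C3aR-KO against APP-KI microglia, 0 of 9 passed (background 0.00806%, again C3ar1), 0 had an unadjusted p under 0.05, and the differences ran from -0.31 for Clu to 0.25 for Abca7. Over all genes, an unadjusted p under 0.05 by limma was found for 38 higher and 109 lower, again fewer than chance alone gives. With so few small p-values in both comparisons, 0 of 9 does not show that the members were unchanged. For the 3 genes that fell with APP-KI, the difference was 0.18 for Cass4 (95% interval -0.33 to 0.68), 0.15 for Bin1 (-0.21 to 0.51) and 0.09 for Abi3 (-0.23 to 0.40). These intervals do not reach the size of the fall of any of the 3 in APP-KI against WT, but they do allow smaller changes. The interaction asks if the effect of APP-KI differs with and without C3aR. It was called for 0 of 9 members and for 0% of genes by limma with Benjamini-Hochberg adjustment, while edgeR called 0 genes and DESeq2 1. Before adjustment, p by limma was under 0.05 for 111 higher and 92 lower genes, fewer than chance alone gives. That count of 203 before adjustment was 1774 without the libraries with few genes. It was 33 and 116 without WT replicate 4 or 5, 484 and 319 without APP-KI replicate 5 or 6, 410 and 831 without C3aR-KO replicate 1 or 3, and 421 and 135 without APP-KI; C3aR-KO replicate 1 or 5. It was 0.11 for Cass4 (95% interval -0.67 to 0.88), 0.02 for Bin1 (-0.54 to 0.58) and 0.11 for Abi3 (-0.38 to 0.60). The comparisons with WT and with APP-KI share their libraries with those above, and within the library series the C3aR-KO minus WT difference of Cass4 was 0.46 in one and -0.32 in the other.

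The sort for C3aR was compared in each genotype. In WT, 0 of 9 members and 0% of genes were called between libraries labelled C3aR-positive and all sorted microglia by limma with Benjamini-Hochberg adjustment. Before adjustment, p by limma was under 0.05 for 75 higher and 318 lower genes, fewer than chance alone gives, and edgeR called 0 and DESeq2 30. In APP-KI the counts were 0 of 9 and 0% (125 higher and 326 lower before adjustment, again fewer than chance alone gives, 0 by edgeR and 18 by DESeq2). C3ar1 itself was not called by limma in WT, although its libraries did not overlap (37.6 to 81.2 labelled C3aR-positive, 276 to 340 all sorted). Large differences can therefore go uncalled in this comparison. The WT count of 393 before adjustment was 164, 219 and 244 without WT replicate 4, 5 or 6 of all sorted microglia and 1035 without APP-KI replicate 4. The APP-KI count of 451 was 298, 284 and 300 without those WT libraries, 873, 1005 and 700 without APP-KI replicate 4, 5 or 6, and 752 without C3aR-positive APP-KI replicate 1. Cass4 differed by -0.05 (95% interval -0.51 to 0.41) in WT and 0.02 (-0.44 to 0.48) in APP-KI, and Bin1 by 0.03 (-0.32 to 0.37) and 0.06 (-0.28 to 0.40). Picalm in WT was the only gene whose C3aR-positive libraries all exceeded the others (9.74% of all genes did), by 0.17 (95% interval -0.33 to 0.67). The difference between the APP-KI effects of the 2 sorts was not called for any of the 9 (0% of 12589 genes by limma with Benjamini-Hochberg, 555 higher and 347 lower before adjustment, 0 by edgeR and 37 by DESeq2, with the count of 902 before adjustment at 200 without WT replicate 4 and 1497 without APP-KI replicate 5 of all sorted microglia), and ran from -1.56 for Clu (95% interval -4.92 to 1.81) to 0.28 for Abi3 (-0.10 to 0.66).

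Levels of different genes were compared per kilobase of annotated exon (union of the exons of GENCODE M21). In WT all sorted microglia Bin1 led with 220 ± 38.0 scaled units per kilobase (SD, n = 3), followed by Picalm at 82.8 ± 6.71 and Abi3 at 82.1 ± 8.77, whose libraries overlapped. Rin3 (41.0 ± 1.32) and Ptk2b (40.1 ± 1.00) were next and overlapped, then Cd2ap (14.5 ± 1.05) and Abca7 (14.3 ± 0.63), which also overlapped. Cass4 stood at 7.19 ± 0.42 and Clu last at 1.16 ± 0.66. In APP-KI all sorted microglia Bin1 was still first at 146 ± 33.7, Ptk2b (44.3 ± 6.43) came before Rin3 (31.6 ± 3.59) with no overlap, and Cass4 (2.76 ± 0.71) fell into the range of Clu (2.77 ± 3.96). In C3aR-positive microglia Ptk2b stood before Rin3 in both genotypes, with overlap in WT (44.1 ± 7.61 and 40.9 ± 2.26 per kilobase) and without it in APP-KI (44.0 ± 2.62 and 32.3 ± 2.70). Gene-level counts do not separate the isoforms of these genes, several of which, Bin1 and Picalm among them, are known to be spliced in many forms.

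Several members varied together over the 20 libraries. On log2 scaled values Pearson's r was 0.90 for Bin1 with Rin3, 0.84 for Bin1 with Cass4, 0.84 for Bin1 with Picalm, 0.85 for Picalm with Rin3 and 0.84 for Abi3 with Cass4. Other pairs went opposite ways, among them Cd2ap with Abca7 (-0.62) and Ptk2b with Clu (-0.61). These libraries share genotypes. Picalm, Bin1, Rin3 and Cd2ap were also each highest of their group in APP-KI replicate 4 and APP-KI; C3aR-KO replicate 1, both with few genes. The part of these libraries in the r was not tested, and the r is given as a description. Of 12269 genes, the one with the most similar profile was Cyth4 for Bin1 (r = 0.985), Bank1 for Cass4 (0.952), Rab3il1 for Abi3 (0.962), Lpin2 for Picalm (0.936), Abl1 for Rin3 (0.961), Rock2 for Cd2ap (0.946), Gpaa1 for Abca7 (0.913) and Slco1c1 for Clu (0.900). Ptk2b had no close partner, with Dhx9 first at r = 0.806.

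Around the members, 120 genes of the same pathways were listed, of which 112 were tested in each genotype comparison. In C3aR-positive microglia 23 (20.54%) were higher and 13 (11.6%) lower in APP-KI, against 13.01% and 9.71% of all genes. In all sorted microglia 4 (3.57%) were higher and 8 (7.14%) lower, against 2.22% and 1.93%, and in APP-KI; C3aR-KO against C3aR-KO 7 (6.25%) were higher and 8 (7.14%) lower, against 3.96% and 2.97%. The counts of the single lists below have the same background. For C3aR-KO against WT, APP-KI; C3aR-KO against APP-KI and the interaction, 0 of 112 passed by limma. The same lists gave 0 of 115 in the comparisons of the sorts.

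Among the partners of Picalm and Bin1 in clathrin endocytosis, 5 of 32 genes tested rose and 5 fell in C3aR-positive APP-KI microglia (median log2 fold change -0.08, against -0.17 over all genes). Synj2, a phosphoinositide phosphatase of vesicle uncoating, rose from 44.8 ± 7.48 to 137 ± 12.7 scaled units (n = 3 each, adjusted p = 0.000182, limma with Benjamini-Hochberg), and it passed in the other APP-KI comparisons as well (log2 fold change 1.64 and 1.16). Epn2, an epsin that bends membrane, fell from 40.2 ± 1.64 to 18.3 ± 1.84 (adjusted p = 0.00349, limma with Benjamini-Hochberg). For APP-KI; C3aR-KO against C3aR-KO its log2 fold change was -0.52 and was not called (adjusted p = 0.403, limma with Benjamini-Hochberg). In all sorted microglia only Synj2 rose and only Epn2 fell of the 32. Around Rin3, in the early endosome and retromer list, 4 of 26 rose and 1 fell in C3aR-positive microglia (median 0.00). Rin2, a relative of Rin3, rose from 288 ± 19.4 to 489 ± 105 (adjusted p = 0.00719), Eea1, the Rab5 tether, from 79.4 ± 1.53 to 155 ± 14.4 (adjusted p = 0.000557), and Sorl1, a sorting receptor that is itself an Alzheimer risk gene, from 126 ± 20.2 to 224 ± 9.60 (adjusted p = 0.0023), all by limma with Benjamini-Hochberg. None of the 26 passed in all sorted APP-KI against WT microglia, where Sorl1 differed by -0.14. The difference between the sorts was not called for any of them.

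In the WAVE and Arp2/3 list, which holds the complexes in which Abi3 acts, 8 of 22 genes rose and 1 fell in C3aR-positive APP-KI microglia (median 0.13, against -0.17). Abi2, a paralog of Abi3, rose from 35.8 ± 10.7 to 63.5 ± 16.5 scaled units (adjusted p = 0.0406) and Arpc5, an Arp2/3 subunit, rose by 0.76 on the log2 scale (adjusted p = 0.00306, limma with Benjamini-Hochberg). Was, the WASP protein of blood cells, fell in C3aR-positive (log2 fold change -0.39) and in all sorted microglia (-0.65, adjusted p = 0.0255), and it was the only gene of the list called there. In the focal adhesion kinase and Cas list around Ptk2b and Cass4, 3 of 17 rose and 5 fell in C3aR-positive, 2 rose and 5 fell in all sorted, and 2 rose and 5 fell in APP-KI; C3aR-KO against C3aR-KO microglia. Pxn, the adhesion scaffold paxillin, fell in all 3 (log2 fold change -0.84, -0.92 and -1.10), as did the kinase Src (-0.60, -0.84 and -0.68), while its relative Fgr rose (2.15, 1.91 and 2.17). Of the actin capping and cortactin list around Cd2ap, Capg alone was called of 7, and rose from 14.5 ± 0.701 to 97.7 ± 19.3 in C3aR-positive microglia (adjusted p = 3.03e-05, limma with Benjamini-Hochberg).

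Of the ABCA transporters related to Abca7, 2 of 8 rose and 1 fell in C3aR-positive microglia. Abca1, the cholesterol exporter that loads apolipoproteins, fell from 1265 ± 23.8 to 880 ± 129 scaled units, with log2 fold changes of -0.53 in C3aR-positive, -0.75 in all sorted and -0.77 in APP-KI; C3aR-KO against C3aR-KO microglia (adjusted p = 0.0214, 0.0286 and 0.00842, limma with Benjamini-Hochberg). Abca2 rose from 110 ± 3.67 to 192 ± 13.5 in C3aR-positive microglia (adjusted p = 0.00094) and did not pass in the others. These lists were written with results of these data known, and their counts are descriptions.

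**Figure D3:**
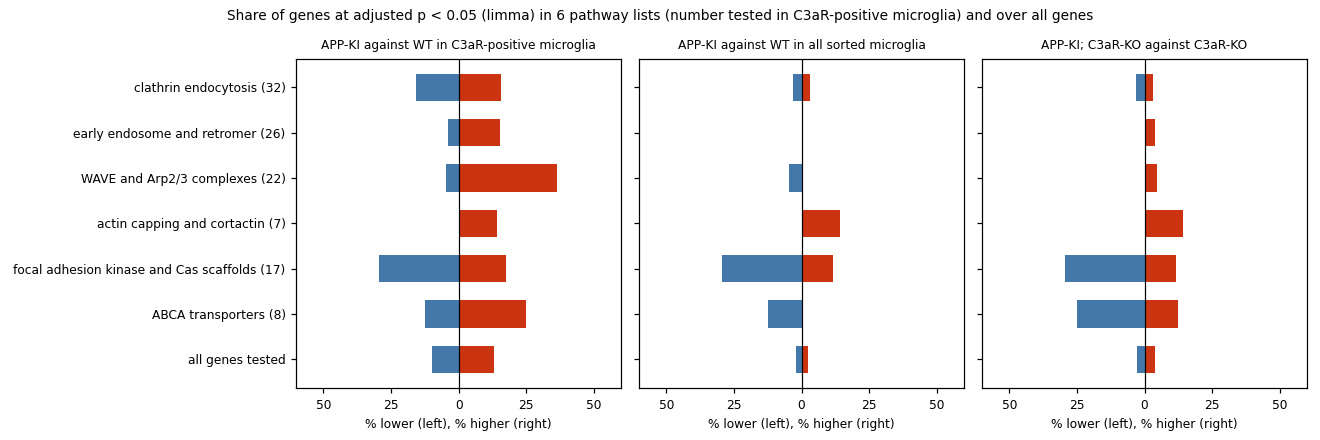
Share of the genes tested that passed an adjusted p of 0.05 by limma, lower to the left and higher to the right of 0 (percent), in 6 pathway lists and over all genes, for 3 comparisons. The WAVE and Arp2/3 list had 8 of 22 genes higher in C3aR-positive microglia, and the focal adhesion kinase and Cas list had 5 of 17 lower in each of the 3 comparisons.

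By position in GRCm38 (GENCODE M21), all 9 are protein-coding genes. Cass4 lies at chr2:172393794-172433757 on the plus strand, Picalm at chr7:90130213-90213465 (plus), Abca7 at chr10:79996494-80015572 (plus), Abi3 at chr11:95830074-95842476 (minus), Rin3 at chr12:102283048-102390855 (plus), Cd2ap at chr17:42792951-42876665 (minus) and Bin1 at chr18:32377230-32435737 (plus). Clu (chr14:65968483-65981547, plus) and Ptk2b (chr14:66153257-66281052, minus) are near each other on chromosome 14, and over the 20 libraries their values had r = -0.61. Clu was 0 in APP-KI replicate 4 and APP-KI; C3aR-KO replicate 1, where Ptk2b was highest of its group (382 and 396). It was also 0 in C3aR-KO replicate 1, where Ptk2b was lowest of its group (326). The part of these libraries in the r was not tested.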

How the data were processed

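RNA of sorted microglia was prepared with the Takara SMARTer Total RNA Pico v3 kit and sequenced at the study's core. The authors aligned the reads to mm10 with TopHat 2.0.9, and the submitters' processing notes also name cutadapt, featureCounts and DESeq2. Whether reads were counted by strand or by UMI is not given in the sources used here. The deposited values, named FPKM by the authors, were treated as a signal: each read count divided by the 75th percentile of its library, so that 100% of values gave whole reads within 0.01 read. They were multiplied by 35.2, and 10 symbols with more than 1 entry were summed. Of 21315 symbols, 347 had no match in GENCODE M21.

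Groups and replicate numbers came from the sample labels, with 1 library per labelled replicate. Nothing in the labels says that replicates are separate mice, so p-values measure the spread between libraries. Replicates of a group differed far beyond counting noise (chi-square per degree of freedom 21.6 to 967). Genes whose scaled values averaged 1 or more were tested on log2(scaled value + 1), which understates changes of low genes, with limma 3.58.1 in R 4.3.3 (mean-variance trend, two-sided, Benjamini-Hochberg over all genes, called at an adjusted p under 0.05). The 6 C3aR-positive libraries had a fit of their own, the 14 libraries of all sorted microglia shared 1 fit with the library series as a term, and the sorts were compared in the 12 WT and APP-KI libraries. The script was tested on simulated data. Results were recomputed with a pseudocount of 0.1, with no filter or a mean of at least 5, quantile and median ratio scaling, no trend, an adjusted p under 0.0005, a replicate block, no series term, the compared groups alone, each library left out, edgeR 4.0.16 and DESeq2 1.42.0 on the recovered reads, and, chosen after seeing the data, leaving out libraries with fewer than 14000 genes with a read. The members, gene lists, markers and tests were chosen with earlier results of these data known. The rule named every member, up to 3 genes of each list that rose most and up to 3 that fell most among those called in C3aR-positive microglia, and the genes closest to each member's profile.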

Additional observations from a re-analysis of the deposited data

Results flagged for a closer look

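In the 5 libraries of APP-KI; C3aR-KO microglia, 4 of the 9 genes had 1 library farther from the others than Dixon's 95% critical value allows. Chance gives this in about 1 of 20 groups, but 36.4% of the 12407 genes tested had such a library here, and for 20.3% it was replicate 1 as the highest. Replicate 1 was the highest for Bin1 (935, against 515 to 620), Rin3 (282, against 197 to 218) and Cd2ap (268, against 194 to 213). It is 1 of the 4 libraries with few genes, and it had the lowest summed microglial markers (11858, against 24522 to 28480 in the other 4) and the highest summed dissociation genes of its group (6476, against 2230 to 4167). Replicate 2 was the highest for Clu (17.3, against 0 to 4.49), and held the most RNA of Slc1a2 (70.4) and of the T and NK cell markers (47.7) in the group. Of other astrocyte genes, Aldoc was also highest there (16.7), but Gfap (5.19) was below replicates 3, 4 and 5 (7.38 to 17.9). Slc1a3 and Aqp4 were highest in replicate 1. The part of these features in the high values was not tested.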

How the results depend on the processing

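Of the values of called results under an alternative, all 226 kept their direction and 143 stayed past the threshold, with Cass4 called under each alternative but the stricter threshold and, in all sorted microglia, the replicate block. In C3aR-positive APP-KI against WT microglia, where 4 members were called, 2 were called with median ratio scaling, without a trend, with the replicate block, by edgeR and by DESeq2, and 0 at an adjusted p under 0.0005. The study states this threshold, as a false-discovery rate, for its own DESeq2 analysis. The count of 0 is by limma, and DESeq2 on the recovered reads gave an adjusted p of 4.73e-06 for Cass4 and 4.22e-05 for Bin1. In all sorted APP-KI against WT microglia, where 3 were called, 1 was called with no filter, with quantile normalization, without a trend and with only the 2 groups compared, 0 with the replicate block or at 0.0005, and 6 without the libraries with few genes. In APP-KI; C3aR-KO against C3aR-KO, where 3 were called, 1 was called without a trend and with only the 2 groups, 0 with the replicate block or at 0.0005, and 5 without the libraries with few genes. Leaving out 1 library gave 2 to 4, 1 to 3 and 1 to 4 members in these comparisons. The cause was not tested. In the other 6 comparisons 0 members were called under every alternative run. The number of genes called ran from 267 to 3175 (main 2798), 75 to 3510 (514) and 139 to 3936 (860).

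Directions turned only for differences that were not called. In C3aR-positive microglia Ptk2b (0.01) was -0.024 with quantile normalization and -0.065 to 0.15 with 1 library left out. In all sorted APP-KI against WT microglia Cd2ap (-0.05) was 0.027 with quantile normalization, 0.13 with the replicate block, 0.034 by edgeR, 0.053 by DESeq2, 0.051 without the series term and -0.32 to 0.19 with 1 library left out. Abca7 (-0.15) was 0.091 without the libraries with few genes and -0.33 to 0.12 with 1 left out, and Clu (0.19) was -0.29 with a pseudocount of 0.1, -0.20 with the replicate block and -1.005 to 1.22 with 1 left out. In APP-KI; C3aR-KO against C3aR-KO Ptk2b (-0.04) was 0.020 with median ratio scaling, 0.034 with quantile normalization, 0.015 by edgeR, 0.025 by DESeq2 and -0.11 to 0.025 with 1 left out. Abca7 (0.24) was -0.12 without the libraries with few genes, and Clu (0.24) was -0.60 to 1.02 with 1 left out.

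Libraries of the same number deviated from their group means with r of -0.01 to 0.04 in C3aR-positive microglia, and libraries of different numbers with -0.05 to 0.02. In all sorted WT and APP-KI microglia r was 0.09 to 0.25 for the same number and -0.22 to 0.20 for different numbers. In C3aR-KO and APP-KI; C3aR-KO it was 0.00 to 0.22 and -0.23 to 0.24. These ranges overlapped, and the numbers were not taken to pair mice. The replicate block could not be fitted for the direct comparisons of the sorts, whose numbers differ. Clu had the fewest reads of the 9 (0 to 1230), and its values of 0 were in libraries of 42239056 to 69483570 reads with few genes.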
